A study of Mus musculus with 6 samples.

Results

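Genes of the cell cycle and of DNA replication were examined in livers of TRIM24 C52/55A and WT mice on a high-fat diet (HFD). They were the 10 genes Mki67, Top2a, Ccnd1, Ccne2, Ccna2, Ccnb1, Cdk1, Mcm2, Mcm6 and Pcna, taken by gene symbol from the 21528 genes listed in any library. In the adult liver most hepatocytes rest outside the cell cycle and can re-enter it after injury or loss of tissue, whereas some non-parenchymal and immune cells keep dividing. D- and E-type cyclins act in G1 and at entry into S phase, the MCM ring unwinds DNA while PCNA holds the polymerases on the template, and A- and B-type cyclins with CDK1 carry the cell into mitosis. Transcripts of many of these genes are low in resting cells and rise in S, G2 or M phase. In whole-tissue RNA, fewer dividing cells and less RNA per dividing cell cannot be told apart.

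Each group held 3 mice of strain C57BL/6 by the labels (the knockin was generated on C57Bl/6J by the study's methods), 5 months old, given a diet with 60% fat for 3 months, and 1 liver library was made per mouse. TRIM24 C52/55A mice are homozygous knockins, made by CRISPR, in which 2 cysteines of the RING domain are replaced by alanine to inactivate the E3-ligase in every tissue; WT mice were the controls. All livers were thus fat-fed, and livers on a normal diet were not analysed here. Expression was deposited as FPKM (fragments of a gene per unit of transcript length and of sequencing depth). FPKM summed to 644619 to 648221 in the WT and 673244 to 676791 in the TRIM24 C52/55A libraries. The lowest values of single-transcript genes were taken to stand for 1 fragment. Their medians put 1 fragment per kilobase at 0.0608 to 0.0643 FPKM and the relative depth of the libraries at 0.957 to 1.01. Only products of FPKM and kilobases between 0.04 and 0.09 were read. A similar depth is thus partly built in, and equal depth is not shown. The approximate fragment numbers below rest on the same medians. The hepatocyte genes Ttr, Apoa1, Hnf4a and Serpina1c were listed in the libraries, but Alb and Tf, among the most abundant transcripts of liver, were not listed in any, so a gene that is not listed may be a failed estimate and not an absent transcript. TRIM24 C52/55A replicate 2 stood apart by the adipocyte genes Adipoq, Plin1 and Lep, at 4.55, 3.32 and 3.98 FPKM there and near 0 elsewhere. Retn, at 1.59 FPKM, was listed there alone. Cfd (2.54 FPKM) and Cidea (0.889 FPKM) were above the other knockin livers there. Cfd was nonetheless below all WT livers, and Cidea below WT replicates 1 and 3. The fold changes of Mki67, Ccnd1 and Ccnb1 are also given without this library. Trim24 itself was at 4.85 to 5.96 FPKM in WT and 4.31 to 8.46 FPKM in TRIM24 C52/55A livers; the knockin changes codons, so this level does not check the genotype.

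Top2a, Ccna2, Mcm2 and Pcna were lower in all 3 TRIM24 C52/55A livers than in all 3 WT livers, by 20.6% (Pcna) to 60.3% (Ccna2) in mean FPKM. Ccnb1 was lower than in any WT liver in the 2 knockin libraries that list it and was not listed in the third. No gene was higher without overlap, and the means of 9 of the 10 were lower, Cdk1 being the exception. Groups that do not overlap, with the knockin lower, were found in 4 of the 9 genes listed in every library, against 19.8% of all such genes. With Ccnb1 entered as 0 where it was not listed they were 5 of 10, against 14.8% of all genes listed and 22.5% of genes tested; means were lower for 57.8% of all genes listed and 65.1% of genes tested. None of the differences that could be tested passed the main test across all genes, and Ccnb1 was not in it. Limma on log2(FPKM + 1) was run on 12225 genes whose mean reached 0.5 FPKM, which held 8 of the 10, and 0 of these 8 had a Benjamini-Hochberg adjusted p under 0.05, against 7.72% of all genes tested (6.09% lower). At an unadjusted p under 0.05, 5 of the 8 were lower, against 19.0% of all genes tested; Top2a and Ccna2 had TRIM24 C52/55A means under 0.5 FPKM and passed the filter only through their WT levels. Mki67 and Ccnb1 fell below the filter. Fold changes below are on the log2(FPKM + 1) scale, TRIM24 C52/55A minus WT. They understate the change of genes of up to a few FPKM, most at the lowest levels. With a pseudocount of 0.1 in place of 1, Mcm2 went from -0.44 to -0.72, but the abundant Pcna only from -0.31 to -0.33.

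**Figure D1:**
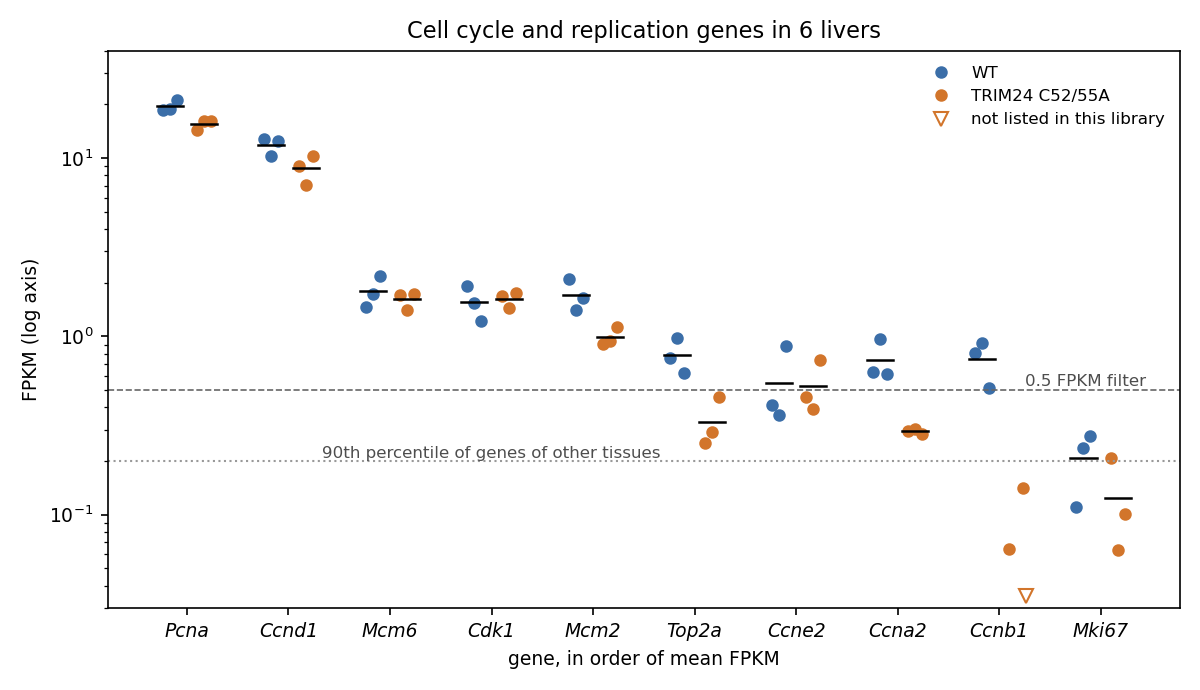
FPKM on a log axis of the 10 genes, in order of mean level, in the 3 WT and 3 TRIM24 C52/55A livers. Each point is 1 library and each bar the mean of 3; no bar is drawn for Ccnb1 in the knockin, where the open triangle marks the library in which it was not listed. The knockin points of Pcna, Mcm2, Top2a and Ccna2, and the 2 drawn for Ccnb1, lie below all WT points. Those of Cdk1 and Ccne2 lie among the WT points, as do those of Mcm6 except TRIM24 C52/55A replicate 2, which lies just below them.

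The promoters of these genes carry letters known from cell cycle-dependent transcription, and they are shown for 4 genes with lower knockin values and for Cdk1, a gene of the same class whose groups overlapped. RefSeq (GRCm38.p6) windows of 300 bases, from 250 before to 50 after the annotated start, were matched for 7 of the 10 genes. They are printed 5′ to 3′ on the strand of the gene, which is the minus strand for all 5: Top2a at chr11:99024140-99024439, Ccnb1 at chr13:100786437-100786736, Mcm2 at chr6:88898731-88899030, Pcna at chr2:132253131-132253430 and Cdk1 at chr10:69352863-69353162. Capitals mark CCAAT (the NF-Y box), TTTGAA (the cell cycle homology region, CHR) and TTCCCGC or TTGGCGC (E2F), on either strand; in Ccnb1 the E2F letters share bases with a CCAAT.
Top2a: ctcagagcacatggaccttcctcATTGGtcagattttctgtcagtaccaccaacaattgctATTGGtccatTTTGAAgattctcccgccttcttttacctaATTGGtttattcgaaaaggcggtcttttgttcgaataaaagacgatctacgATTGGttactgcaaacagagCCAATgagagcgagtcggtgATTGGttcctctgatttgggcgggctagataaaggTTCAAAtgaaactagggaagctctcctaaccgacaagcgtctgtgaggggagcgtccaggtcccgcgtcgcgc
Ccnb1: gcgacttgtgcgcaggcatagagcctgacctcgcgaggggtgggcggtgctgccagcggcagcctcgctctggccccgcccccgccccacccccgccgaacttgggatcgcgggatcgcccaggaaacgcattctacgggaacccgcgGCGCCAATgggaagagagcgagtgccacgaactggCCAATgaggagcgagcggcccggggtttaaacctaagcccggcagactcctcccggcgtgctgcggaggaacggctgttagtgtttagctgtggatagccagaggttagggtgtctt
Mcm2: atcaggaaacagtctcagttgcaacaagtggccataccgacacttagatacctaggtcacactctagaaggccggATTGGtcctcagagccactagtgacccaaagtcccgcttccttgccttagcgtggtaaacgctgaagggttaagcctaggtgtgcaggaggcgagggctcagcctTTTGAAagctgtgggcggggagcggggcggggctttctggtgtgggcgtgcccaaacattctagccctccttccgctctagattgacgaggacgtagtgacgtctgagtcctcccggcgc
Pcna: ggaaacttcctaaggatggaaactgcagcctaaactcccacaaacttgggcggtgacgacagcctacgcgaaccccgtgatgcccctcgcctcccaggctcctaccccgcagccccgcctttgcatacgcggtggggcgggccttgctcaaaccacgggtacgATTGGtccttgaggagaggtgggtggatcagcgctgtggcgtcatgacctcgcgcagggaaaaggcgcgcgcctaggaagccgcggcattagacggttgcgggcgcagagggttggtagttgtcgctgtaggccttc
Cdk1: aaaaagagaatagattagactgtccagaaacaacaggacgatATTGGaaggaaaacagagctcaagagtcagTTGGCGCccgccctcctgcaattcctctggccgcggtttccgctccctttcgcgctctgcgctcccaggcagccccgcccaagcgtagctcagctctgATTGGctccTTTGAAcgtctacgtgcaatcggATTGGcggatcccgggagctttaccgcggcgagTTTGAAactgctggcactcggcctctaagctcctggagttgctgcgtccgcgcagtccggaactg
Top2a held 6 CCAAT and 2 CHR matches, and Cdk1 3 CCAAT, 2 CHR and 1 E2F match. In Ccnb1 there were 2 CCAAT matches and 1 of E2F, in Mcm2 1 CCAAT and 1 CHR, and in Pcna 1 CCAAT alone. The windows of Mki67 (3 CCAAT, 2 CHR and 1 E2F) and Mcm6 (2 CCAAT and 2 E2F) are not printed. CCAAT was present in 7 of these 7 windows and in 37.4% of all 32851 promoter windows of the same length, CHR in 4 of 7 and 17.9%, and E2F in 4 of 7 and 6.81%. At least 2 CCAAT were present in 5 of 7 windows and in 11.7% of all. A match is a description of the letters in the window and says nothing of a factor bound there. Only these exact letters were searched, so a window without a match may still hold another form of the element.

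**Figure D2:**
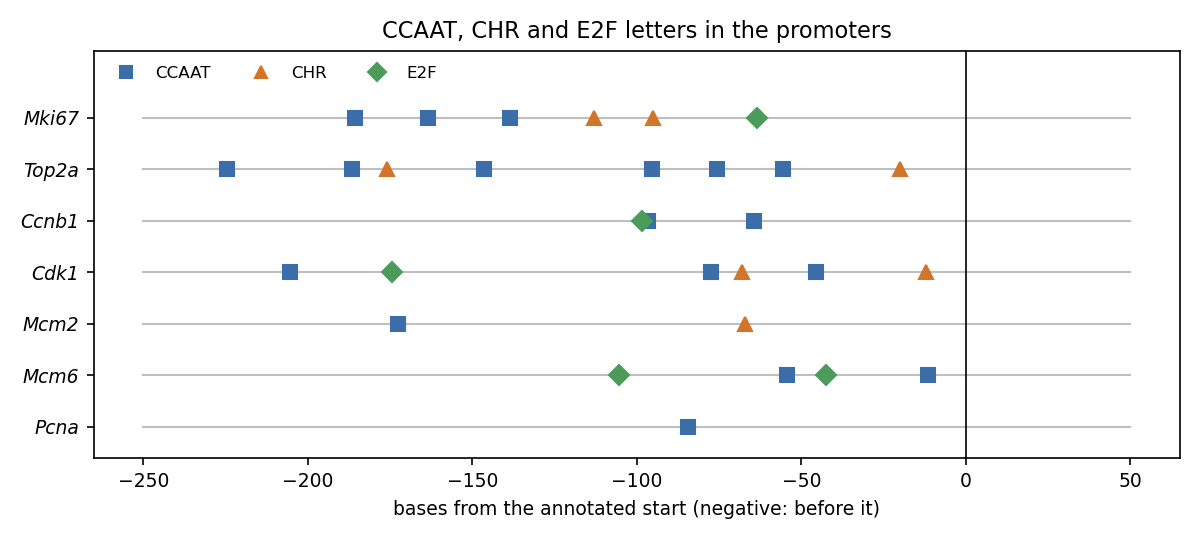
Position of CCAAT (squares), CHR (triangles) and E2F (diamonds) matches, in bases from the annotated start, in the 7 promoter windows found in RefSeq. Each symbol is the centre of 1 match on either strand. Top2a has the most CCAAT matches (6) and Pcna has 1 match in all.

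Mki67 encodes Ki-67, a protein of the mitotic chromosome surface that is used as a marker of dividing cells (chromosome 7, 135689784 to 135716361, minus strand, GRCm38). Its FPKM were 0.110, 0.235 and 0.276 in WT replicates 1 to 3 and 0.207, 0.0636 and 0.101 in TRIM24 C52/55A replicates 1 to 3. The highest knockin library lay above the lowest WT library, so the groups overlapped. With no filter on low values the log2 fold change was -0.10 (adjusted p = 0.581 from limma, standard error 0.071), and an exact permutation test of the means gave p = 0.2 (two-sided). Without TRIM24 C52/55A replicate 2, which had the lowest value, the log2 fold change was -0.064.

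Top2a encodes topoisomerase IIα, which untangles DNA ahead of chromosome segregation (chromosome 11, 98992943 to 99024189, minus strand). It was at 0.756, 0.974 and 0.623 FPKM in WT and at 0.252, 0.290 and 0.455 FPKM in TRIM24 C52/55A livers. Every knockin value was below every WT value. The mean was 57.6% lower (0.784 ± 0.177 against 0.332 ± 0.108 FPKM, SD, n = 3 each), with a log2 fold change of -0.42 (95% interval -0.70 to -0.14) and an adjusted p of 0.0763 from limma. The exact permutation p was 0.1, the smallest that 3 against 3 allows. Top2a and Mki67, both markers of dividing cells, thus differed in whether the genotypes were separated, although a difference between the 2 genes was not tested.

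The cyclins and their kinase were not alike. Ccnd1, the G1 cyclin that partners CDK4 and CDK6, was the most abundant of them, with 12.8, 10.2 and 12.4 FPKM in WT and 9.01, 7.05 and 10.2 FPKM in TRIM24 C52/55A livers. TRIM24 C52/55A replicate 3 and WT replicate 2 were level, and the groups overlapped there. The knockin mean was 25.7% lower (11.8 ± 1.38 against 8.76 ± 1.60 FPKM, SD, n = 3), with a log2 fold change of -0.40 (95% interval -0.72 to -0.075, adjusted p = 0.132 from limma), and of -0.26 without TRIM24 C52/55A replicate 2. Ccne2, a cyclin of S-phase entry, was at 0.411, 0.360 and 0.879 FPKM in WT and at 0.455, 0.389 and 0.741 FPKM in the knockin. Replicate 3 of each genotype was the highest and the groups lay over each other. Its log2 fold change was -0.012 (95% interval -0.37 to 0.35, adjusted p = 0.974 from limma), and it took the opposite sign, 0.026 and 0.049, with median-of-ratios and quantile scaling.

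Ccna2, the cyclin of S phase and G2, was at 0.634, 0.971 and 0.611 FPKM in WT and at 0.295, 0.304 and 0.282 FPKM in TRIM24 C52/55A livers. The 3 knockin livers were close to one another and all below WT. The mean was 60.3% lower (0.739 ± 0.201 against 0.293 ± 0.0112 FPKM, SD, n = 3), with a log2 fold change of -0.42 (95% interval -0.69 to -0.15, adjusted p = 0.0674 from limma). Ccnb1, the mitotic cyclin that activates CDK1, was at 0.807, 0.921 and 0.514 FPKM in WT. In TRIM24 C52/55A replicates 1 and 3 it was at 0.0644 and 0.141 FPKM, and in replicate 2 it was not listed. By an approximate conversion through transcript length, these are 20.5 to 37.7 fragments in the WT libraries and 2.5 and 5.46 in the 2 knockin libraries that list it. Ccnb1 is below the filter at a mean of 0.408 FPKM; with no filter, and the unlisted value entered as 0, its log2 fold change was -0.70 (adjusted p = 0.0381 from limma, where 1.17% of all genes were called lower). Without TRIM24 C52/55A replicate 2 that fit gave -0.66 with an adjusted p of 0.0695, and the call was lost. A pseudocount of 0.1 in place of 1 gave -2.39 (adjusted p = 0.0373), which shows how far the size depends on the pseudocount at this level.

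Cdk1, the kinase that Ccna2 and Ccnb1 products activate, was at 1.90, 1.54 and 1.22 FPKM in WT and at 1.67, 1.45 and 1.76 FPKM in TRIM24 C52/55A livers. The knockin values lay within the WT range. The log2 fold change was 0.047 (95% interval -0.24 to 0.34, adjusted p = 0.866 from limma; exact permutation p = 0.9), and it was -0.050 without WT replicate 3. Its interval overlaps those of Ccna2 and Top2a. In the fit with no filter it was -0.27 to 0.37, apart from the -0.95 to -0.46 of Ccnb1, whose unlisted value was entered as 0. Differences between these genes were not tested.

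Mcm2 and Mcm6 encode subunits of the MCM helicase ring. Mcm2 was at 2.09, 1.41 and 1.63 FPKM in WT and at 0.905, 0.944 and 1.12 FPKM in TRIM24 C52/55A livers, each knockin value being below each WT value. Its mean was 42.1% lower (1.71 ± 0.351 against 0.990 ± 0.115 FPKM, SD, n = 3), with a log2 fold change of -0.44 (95% interval -0.72 to -0.16, adjusted p = 0.0707 from limma). Mcm6 was at 1.46, 1.74 and 2.19 FPKM in WT and at 1.70, 1.40 and 1.73 FPKM in the knockin, where only replicate 2 was below all WT livers. Its log2 fold change was -0.092 (95% interval -0.38 to 0.20, adjusted p = 0.722 from limma), and 0.0072 without WT replicate 3. The intervals of the 2 subunits overlap, and a difference between them was not tested. The other subunits of the ring, named after their values were seen, were mixed: Mcm3 had a log2 fold change of -0.38 and Mcm5 of -0.26, while Mcm4 was at -0.083 and Mcm7 at 0.056 (adjusted p of 0.129, 0.508, 0.699 and 0.855 from limma).

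Pcna, the sliding clamp of the replication fork that also serves DNA repair, had the highest level of the 10 genes. It was at 18.5, 18.9 and 21.2 FPKM in WT and at 14.4, 16.1 and 16.1 FPKM in TRIM24 C52/55A livers. All knockin values were below all WT values. The mean was 20.6% lower (19.5 ± 1.46 against 15.5 ± 0.987 FPKM, SD, n = 3), with a log2 fold change of -0.31 (95% interval -0.52 to -0.11, adjusted p = 0.0737 from limma). Of the 4 genes without overlap that were listed in every library it had the smallest proportional difference and the most fragments behind it, about 340 to 517 per library.

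**Figure D3:**
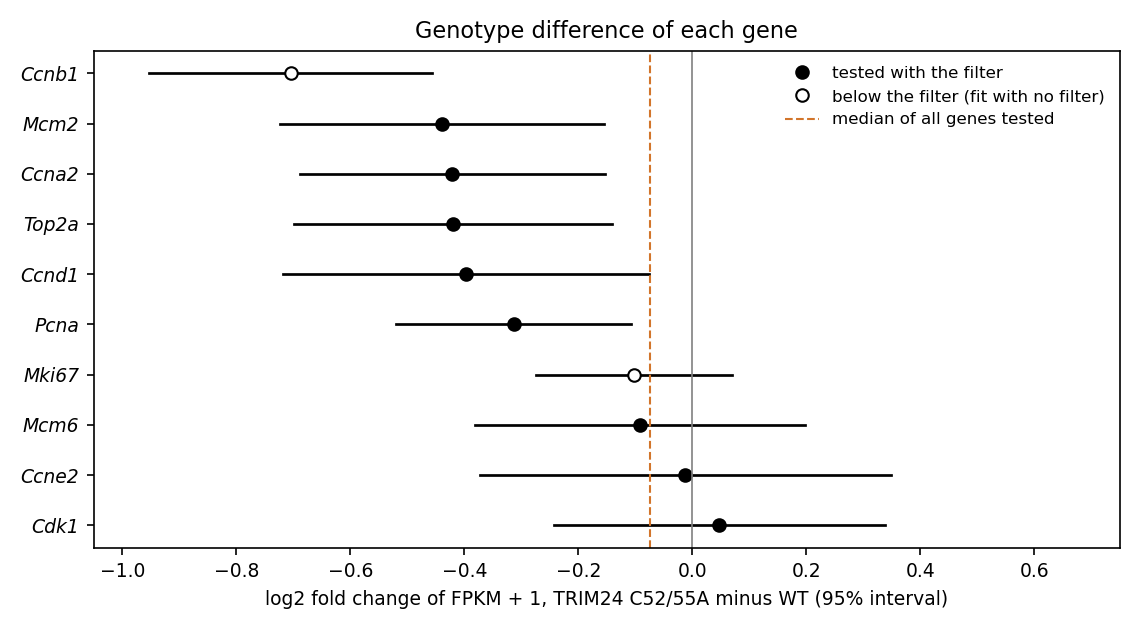
Log2 fold change of FPKM + 1, TRIM24 C52/55A minus WT, with 95% intervals from limma for the 10 genes. Filled points were tested among genes whose mean reached 0.5 FPKM and open points come from the fit with no filter; the dashed line is the median of all genes tested (-0.075). The intervals of Ccnb1, Mcm2, Ccna2, Top2a, Ccnd1 and Pcna lie below 0 and those of Mki67, Mcm6, Ccne2 and Cdk1 include it; none of the intervals is adjusted for the number of genes.

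The balance of the libraries bears on these values. In the knockin 200 of all genes tested were called higher and 744 lower, and 249 higher and 410 lower with median-of-ratios scaling. Rescaling each library to a fixed total (TPM) raises all values, those of the knockin less, so that 13062 genes pass the filter, Ccnb1 among them, and the pseudocount weighs less. The median of all genes tested was then -0.13, against -0.075. In that fit Top2a, Ccna2, Ccnb1, Mcm2 and Pcna were under an adjusted p of 0.05 (0.0113 to 0.0474, limma), with 9.91% of all genes tested lower; which of these changes brought them there was not tested. With median-of-ratios and quantile scaling 0 of the genes tested passed. In each of the fits that left out 1 library, with the filter, 0 of those tested passed as well. Mki67 and Ccnb1 were below the filter in all of these fits and were not tested. Ccna2 was not tested without any of the WT libraries, Top2a not without WT replicate 2, and Ccne2 not without WT replicate 3.

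By mean over the 6 livers the order was Pcna (17.5 FPKM), Ccnd1 (10.3), Mcm6 (1.70), Cdk1 (1.59), Mcm2 (1.35), Top2a (0.558), Ccne2 (0.539), Ccna2 (0.516), Ccnb1 (0.408) and Mki67 (0.165). FPKM are per transcript length, so these levels can be compared between genes. The ranges of Pcna and Ccnd1, and those of Ccnd1 and Mcm6, did not overlap, with ratios of the means of 1.71 and 6.04. From Mcm6 downwards the range of each gene over the 6 livers, both genotypes together, overlapped that of the next. Within the genotypes Mcm2 lay above Top2a in 6 of 6 livers without overlap, with a ratio of the means of 2.42, and in WT Ccnb1 lay above Mki67 without overlap. In the knockin there was also no overlap of Cdk1 with Mcm2, of Ccne2 with Ccna2, or of Ccna2 with the listed values of Ccnb1. Mcm6 and Cdk1, and Top2a and Ccne2, overlapped within both genotypes. Each of the 10 genes reached its highest value in a WT library, 3, 3 and 4 of them in replicates 1 to 3, and 8 had their lowest value in a knockin library, 3, 4 and 1 of them in replicates 1 to 3. The share of all genes with such extremes was not counted, and knockin means were lower for 57.8% of all genes listed. Among the 10, the groups of Mki67, Ccnd1, Ccne2, Cdk1 and Mcm6 overlapped.

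By mean FPKM over all livers only Mki67 was at the detection limit, and Ccnb1 was at it in the TRIM24 C52/55A livers. As a measure of that limit, 30 genes of other tissues (photoreceptor, pancreatic, neuronal, germ cell and similar genes) were looked up, of which 20 were not listed in any library, and the 90th percentile of their mean level, with those 20 at 0, was 0.199 FPKM. Gnat1 (3.58 FPKM), Syt1 (1.12 FPKM) and Gdf9 (0.378 FPKM) lay above it. Mki67, at a mean of 0.165 FPKM, was at or under that level in the mean and in 3 of 6 libraries. Its longest transcript has 10061 bases, so these low FPKM still stand for about 10.2 to 44.6 fragments per library. Ccnb1 had only about 2.5 and 5.46 in the 2 knockin libraries that list it. Ccnb1 was under it in both TRIM24 C52/55A libraries that list it and above it in the 3 WT libraries. The means of the other 8 genes were above 0.5 FPKM, although Ccna2 in the knockin rested on only about 13 to 14.4 fragments per library by the same conversion.

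For 6 genes the interval in the files equals the annotated gene (GENCODE): Mki67, Top2a, Ccnb1 (chromosome 13, 100778650 to 100786570, minus strand), Mcm2 (chromosome 6, 88883474 to 88898780, minus strand), Mcm6 (chromosome 1, 128331590 to 128359664, minus strand) and Pcna (chromosome 2, 132249162 to 132253314, minus strand). For Ccna2 (chromosome 3, 36552606 to 36572150, minus strand), Ccnd1 (chromosome 7, 144915100 to 144939925, minus strand) and Ccne2 (chromosome 4, 11191351 to 11254258, plus strand) it runs over a neighbour, Exosc9, Oraov1 and Ints8 in turn. The neighbours had log2 fold changes of -0.021, -0.15 and 0.28 (adjusted p of 0.936, 0.487 and 0.232 from limma). Exosc9 was thus level where Ccna2 was lower. Whether reads of a neighbour entered the value of its gene was not tested. Cdk1 (chromosome 10, 69336635 to 69352938, minus strand) has a shorter interval than the annotated gene.

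The same question was asked of 119 other genes of the cell cycle, in 5 lists by role, all of them listed in the files. Of these, 83 passed the filter and 7 had an adjusted p under 0.05, all lower in the TRIM24 C52/55A liver (8.43%, against 6.09% of all genes tested). Groups without overlap and lower in the knockin were found for 33 of the 119 (27.7%, against 14.8% of all genes listed and 22.5% of genes tested), with unlisted values entered as 0, or 30 of the 111 listed in every library (27.0%, against 19.8%), and 2 were higher without overlap. Control of the G1/S step had 1 of 19 tested genes lower, with a median log2 fold change of -0.14. Origin licensing and firing had 0 of 17 (1 higher and 1 lower at an unadjusted p under 0.05 in limma) and a median of -0.083, close to the -0.075 of all genes tested. Replication fork and nucleotide supply had 3 of 24 and a median of -0.13. The CDK inhibitors and inhibitory kinases had 1 of 7 and a median of -0.16. G2/M and mitosis had 2 of 16 (Cdc20 and Prc1) and a median of -0.29, but 7 of these 16 genes, both called ones included, had knockin means under 0.5 FPKM and passed the filter only through their WT levels. Over all 37 genes of this list, with no filter, the median was -0.18, against -0.02 for all genes. Of the 37 means 31 were lower, against 57.8% of all genes listed. Neither Cdc20 nor Prc1 was called with no filter (adjusted p of 0.0565 and 0.0742 from limma). Of the 30 genes of this list that were listed in every library, 11 were lower without overlap, against 19.8% of all such genes.

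Rrm2, the small subunit of ribonucleotide reductase that supplies deoxynucleotides, fell from 2.81, 2.76 and 2.60 FPKM in WT to 0.971, 1.31 and 1.37 FPKM in TRIM24 C52/55A livers. The log2 fold change of -0.75 had a standard error of 0.11 and an adjusted p of 0.00804 from limma, and it was called in 15 of 16 alternatives. Cdc20, an activator of the anaphase-promoting complex, fell from 0.831, 1.92 and 1.46 FPKM to 0.213, 0.163 and 0.276 FPKM. Here the log2 fold change was -0.96 (adjusted p = 0.0159 from limma, standard error 0.17), and the adjusted p was 0.0665 if WT replicate 3 was left out and 0.0648 if TRIM24 C52/55A replicate 1 was. It was 0.0565 with no filter, and the knockin mean of 0.218 FPKM lay below the filter. The interval of Cdc20 in the files also covers Elovl1, a fatty acid elongase gene. Rrm2 and Cdc20 had knockin values below all WT values.

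The remaining calls were close to the threshold. Pold1, the catalytic subunit of DNA polymerase δ, had a log2 fold change of -0.56 (adjusted p = 0.0266 from limma), and Rpa2, of the single-strand binding complex, one of -0.41 (adjusted p = 0.0478). Prc1, a bundler of spindle midzone microtubules, had -0.49 (adjusted p = 0.0484), and Wee1, the kinase that holds CDK1 inactive, -0.44 (adjusted p = 0.0451). Cdk4, the partner of cyclin D1, was at 24.1, 22.1 and 21.4 FPKM in WT and 16.0, 17.9 and 18.3 FPKM in the knockin, a log2 fold change of -0.36 (adjusted p = 0.0471 from limma). Leaving out single libraries took Rpa2 (adjusted p of 0.0656 to 0.150) and Wee1 (0.0530 to 0.165) out of the calls each time. It took out Pold1 (0.0672 to 0.0905) and Cdk4 (0.0679 to 0.163) each time except without TRIM24 C52/55A replicate 2, and Prc1 (0.0544 to 0.164) in each of the 4 such fits in which it was tested. The intervals of Wee1 (over Ipo7 and Zfp143), Cdk4 (over Tspan31) and Prc1 (over Rccd1) cover other genes.

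The most abundant gene of each list was not moved past the threshold, apart from Cdk4. Mcm10, a factor of origin firing, had a log2 fold change of 0.18 (adjusted p = 0.717), Rfc2, of the clamp loader, -0.25 (0.153), and Pttg1, the securin, -0.23 (0.223), all from limma. Cdkn1a, the CDK inhibitor p21 and a target of p53, was at 33.5, 17.0 and 18.0 FPKM in WT and 36.5, 32.0 and 54.2 FPKM in TRIM24 C52/55A livers. WT replicate 1 lay within the knockin range, and the log2 fold change of 0.85 had an adjusted p of 0.102 from limma. Plk1 and Ccnb2, chosen after their values were seen, were low in the knockin as well. Plk1, a mitotic kinase below the filter, was at 0.613, 0.555 and 0.609 FPKM in WT and 0.205, 0.153 and 0.184 FPKM in the knockin (log2 fold change -0.43 and adjusted p = 0.0221 from limma with no filter). Ccnb2, the other B-type cyclin, was at 0.516, 1.01 and 0.794 FPKM in WT and at 0.309 and 0.367 FPKM in TRIM24 C52/55A replicates 1 and 3, and like Ccnb1 it was not listed in replicate 2.

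**Figure D4:**
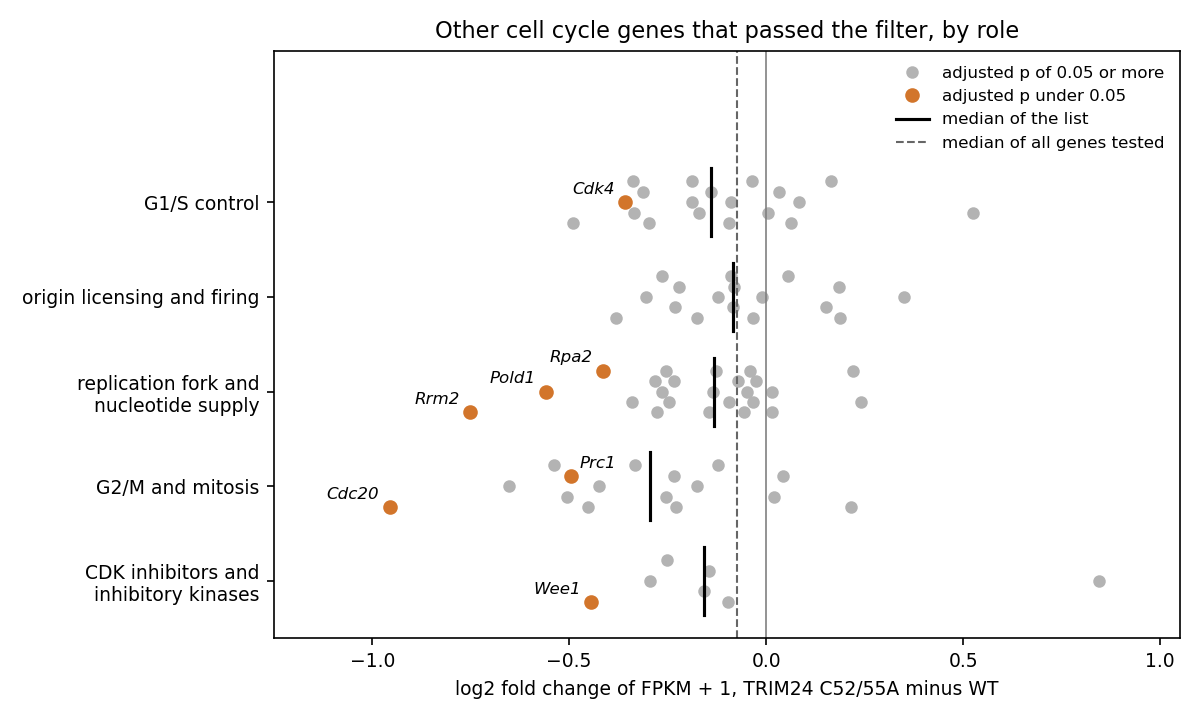
Log2 fold change of FPKM + 1, TRIM24 C52/55A minus WT, of the 83 other cell cycle genes whose mean reached 0.5 FPKM, in 5 lists by role. Each point is 1 gene, orange where the adjusted p was under 0.05, and the short black lines are the medians of the lists. The 7 orange points all lie below 0. The dashed line is the median of all genes tested (-0.075), and the median of G2/M and mitosis (-0.29) is taken over genes of which 7 of 16 passed only through their WT levels.

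Markers of the cells that could contribute dividing cells were read beside these values. The summed FPKM of 7 Kupffer cell and macrophage genes was 149 to 187 in WT and 130 to 176 in TRIM24 C52/55A livers, with 0 of 7 called and all 7 means lower (median log2 fold change -0.24). For 6 endothelial genes it was 83.9 to 92.3 and 76.4 to 85.2 FPKM, with Lyve1 lower (log2 fold change -1.26, adjusted p = 0.0281 from limma). Lyve1 was called in 8 of 16 alternatives, and not with no filter (adjusted p = 0.0964 from limma). For 11 lymphocyte genes the sum was 6.67 to 7.50 and 6.83 to 7.80 FPKM, with 1 of 4 tested called, Cd4, which was higher (log2 fold change 1.11, adjusted p = 0.00108 from limma). Cd4 had a WT mean of 0.384 FPKM and passed the filter only through its knockin mean of 1.99 FPKM. With no filter its adjusted p was 0.00936 from limma. Of the other T cell genes, Cd3e and Trac had lower knockin means and Cd3d and Cd8a higher ones, all with overlap. Cholangiocyte and progenitor genes summed to 28.7 to 54.5 and 22.5 to 34.4 FPKM, stellate cell genes to 33.1 to 38.2 and 28.4 to 39.1 FPKM, and erythroid genes to 422 to 1068 and 330 to 463 FPKM, with 0 called in each. The 4 listed hepatocyte genes summed to 15267 to 15458 and 15211 to 17868 FPKM, also with 0 called. Kupffer cell and erythroid sums were thus on the lower side in the knockin, with overlap, as the dividing-cell transcripts were; their part in the differences above was not tested.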

How the data were processed

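Liver RNA of 3 WT and 3 TRIM24 C52/55A mice was sequenced, 1 library per mouse, and the authors deposited a table of FPKM for each library. The submitters' processing notes name bcl2fastq, Salmon 0.14.0, DESeq2 1.30.0 and GRCm38, with no role for the tools; read counts were not used here. Libraries were grouped by genotype and replicate number of the labels. Genes missing from a library were entered as 0. Start coordinates in the files count from 0 and were raised by 1. FPKM keep no total count; fragments were approximated from the lowest values of single-transcript genes over 1500 bases, and intervals of counting error are not given.

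Log2(FPKM + 1) was tested where a gene's mean reached 0.5 FPKM, using limma 3.58.1 (R 4.3.3, mean-variance trend, genotype as the only term, two-sided), with Benjamini-Hochberg adjustment over all genes tested and a threshold of 0.05. The fit was checked on simulated data. Single genes had a two-sided exact permutation test on FPKM, whose smallest p is 0.1. Tables and plots were made with matplotlib 3.10.9, scipy 1.17.1, numpy 2.4.6 and pandas 2.3.3 under Python 3.11.15. Alternatives were a pseudocount of 0.1, a filter at 1 FPKM or none, TPM (each library rescaled to a fixed total), median-of-ratios and quantile scaling, no trend, a replicate block and each library left out. The genes and the lists were chosen with earlier results of these data known, from general knowledge of the pathways. Named were the 10 genes, every called gene of a list (at most 4), the most abundant gene of each list, and genes on which a result turned.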

Additional observations from a re-analysis of the deposited data

How the results depend on the processing

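All genes called numbered 944. They were 347 with no filter, 1488 with TPM, 457 with no filter and a pseudocount of 0.1, 305 with no filter and without TRIM24 C52/55A replicate 2 (both chosen after seeing the data), and 294 to 1280 with single libraries left out (294 without TRIM24 C52/55A replicate 1, 300 without WT replicate 3, 1280 without TRIM24 C52/55A replicate 2, 311 without WT replicate 1 and 475 without WT replicate 2). Of the 10 genes 0 were called, against 1 with no filter (Ccnb1), 1 with no filter and a pseudocount of 0.1, 5 with TPM, and 0 whichever single library was left out. Mki67 and Ccnb1 were below the filter, and so not tested, in the main fit and with single libraries left out. Under TPM the log2 fold changes were -0.57 for Top2a, -0.57 for Ccna2, -0.56 for Mcm2 and -0.38 for Pcna; Ccnb1 was at -0.66 with no filter and without TRIM24 C52/55A replicate 2. Ccne2 took the opposite sign with median-of-ratios (0.026) and quantile scaling (0.049) and without TRIM24 C52/55A replicate 1 (0.020) or 2 (0.053, also with no filter). With single libraries left out, Cdk1 ran from -0.050 (without WT replicate 3) to 0.14 and Mcm6 from -0.18 to 0.0072 (without WT replicate 3). Ccnd1 and Mki67 kept their side of the threshold and their direction in each alternative in which they were tested. Of the 119 other cell cycle genes 7 were called, against 2 with no filter, 4 with the filter at 1 FPKM, 11 with TPM, 3 with median-of-ratios scaling, 2 with quantile scaling, 3 with no filter and a pseudocount of 0.1, 1 with no filter and without TRIM24 C52/55A replicate 2, and 1 to 4 with single libraries left out. Genes with a mean under 0.5 FPKM numbered 2 of 10, with 0 under 0.1 FPKM, 5 under 1 FPKM, and 1 under 0.5 in TPM. The causes were not tested, except that fewer libraries and more low genes are part of the construction of some fits. Some fits give no value for Ccna2, Top2a or Ccne2, whose mean then drops under the filter.

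Same-numbered mice are different animals, and the correlations of their deviations from the group means (-0.12, -0.10 and 0.003) give no sign of pairing. With the replicate block 578 genes, 0 of the 10 genes and 2 of the other cell cycle genes were called. Mki67 and Ccnb1 were not tested in that fit.

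Levels under about 0.5 FPKM rest on few fragments, which limits Mki67, Ccnb1 and Ccna2. By the approximate conversion Ccne2 (17.8 to 42.4 fragments per library) and the short transcript of Cdk1 (24.5 to 38.8) were limited as well.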
